A study of Mus musculus with 4 samples.

Results

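The TNF ligand and receptor superfamily was followed by ATAC-seq, an assay in which the Tn5 transposase marks open DNA, in BMDMs, which are mouse bone marrow-derived macrophages. Wild-type cells from mice aged 8 to 12 weeks were differentiated for 6 days with L929 supernatant, a source of the macrophage growth factor M-CSF, and were left untreated (control, 2 libraries) or given IL-4 at 20 ng/ml for 1 h (2 libraries). All 4 libraries share the genotype and the M-CSF, and the groups differ by IL-4. The labels call the 2 libraries of each group replicates without naming the animals, so p-values rest on the spread between libraries. For limma, the test of heights used below, that spread is shared over regions. Its p-values and intervals thus largely reflect regions of similar height and not the replicates of 1 region.

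Joining the peaks of the 4 libraries that shared 1 bp or more gave 60710 regions of open chromatin, and each region carried the gene of the nearest transcription start site (TSS), taken from its highest peak. The 127 regions whose gene name was Tnfsf or Tnfrsf followed by a number make up the superfamily here. They were assigned to 26 genes. These were 11 ligand genes with 56 regions and 2 genes of receptors with a death domain with 14 regions. Another 4 genes, with 11 regions, were grouped here as decoy or soluble receptors, and 9 genes of other receptors had 46 regions. Tnfrsf26 was placed in the decoy group with its neighbours Tnfrsf22 and Tnfrsf23, and whether it acts as a decoy was not tested. A region was named by the nearest TSS, which does not show that it acts on that gene.

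TNF superfamily ligands are mostly trimeric proteins on the surface of the cell that makes them, and several are also shed. Their receptors pass the signal on through TRAF adaptors to NF-kB or, where they carry a death domain, to cell death, and decoy receptors bind a ligand without such a signal. In macrophages the family includes both TNF receptors and RANK (Tnfrsf11a), the receptor through which RANK ligand (Tnfsf11) turns macrophage precursors into osteoclasts. IL-4 acts through the transcription factor STAT6, which binds the letters TTCNNNNGAA, whereas other STAT proteins prefer TTCNNNGAA.

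The sequences of 10 regions are shown, namely both regions with a peak in the IL-4 libraries alone and 8 of the 12 regions with the largest differences between the groups. They were picked after their values were seen. The other 4 of the 12 are not shown. Of these, the Tnfrsf1b region at 12909 bp holds 1 AP-1, 1 PU.1 and 2 NF-kB matches. The Tnfrsf1b promoter, Tnfrsf19 282 bp and Tnfrsf23 −418 bp hold none of the matches marked here. They are the forward strand of mm10 (GRCm38), 5′ to 3′, read from the RefSeq assembly. Capitals mark matches to the STAT6 letters TTCNNNNGAA, the other STAT letters TTCNNNGAA, the AP-1 letters TGACTCA, the PU.1 letters GAGGAAGT and the NF-kB motif, searched on both strands. AP-1 and PU.1 are factors of the basal macrophage enhancer landscape. Matches can overlap, since the PU.1 letters hold a GAA with which a STAT match may end. The first 4 regions were higher after IL-4 or had a peak in the IL-4 libraries alone, and each holds 1 STAT6 match. The Tnfrsf1b and Tnfrsf8 regions among them also hold 1 AP-1 match each, so AP-1 matches are not confined to the lower regions. None of the differences in height passed the test given further on.
Tnfrsf1b at −7700 bp, chr4:145254452-145254709: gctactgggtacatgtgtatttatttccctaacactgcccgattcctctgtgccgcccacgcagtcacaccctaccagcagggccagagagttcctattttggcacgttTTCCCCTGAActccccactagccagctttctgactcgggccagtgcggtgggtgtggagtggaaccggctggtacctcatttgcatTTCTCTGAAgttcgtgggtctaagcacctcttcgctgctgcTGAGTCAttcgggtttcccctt
Tnfrsf8 at −8358 bp, chr4:145323347-145323635: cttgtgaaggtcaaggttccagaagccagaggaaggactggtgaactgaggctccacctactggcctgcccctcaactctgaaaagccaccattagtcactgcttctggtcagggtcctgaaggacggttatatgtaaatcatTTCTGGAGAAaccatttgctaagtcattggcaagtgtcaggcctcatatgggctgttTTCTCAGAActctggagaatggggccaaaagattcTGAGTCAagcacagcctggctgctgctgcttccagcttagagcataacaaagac
Tnfsf13 at −260 bp, chr11:69685701-69685905: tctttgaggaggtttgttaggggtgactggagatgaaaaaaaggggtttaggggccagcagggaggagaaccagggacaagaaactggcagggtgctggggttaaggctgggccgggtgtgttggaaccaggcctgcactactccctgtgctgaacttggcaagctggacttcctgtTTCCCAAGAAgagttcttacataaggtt
Tnfrsf11a at −33965 bp, chr1:105746614-105746877: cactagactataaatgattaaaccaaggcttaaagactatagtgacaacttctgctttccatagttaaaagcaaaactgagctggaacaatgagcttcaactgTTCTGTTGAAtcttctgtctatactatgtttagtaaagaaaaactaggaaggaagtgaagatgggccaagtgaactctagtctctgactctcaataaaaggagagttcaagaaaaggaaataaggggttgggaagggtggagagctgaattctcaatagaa

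The next 3 regions were higher after IL-4, or had a peak in the IL-4 libraries alone, and hold no STAT6 match. Of the Tnfsf18 and Tnfsf4 regions the central 300 bases are shown, the first with 1 match to the other STAT letters and the second with no match, and the Tnfrsf11a region holds 1 AP-1 match.
Tnfsf18 at 22858 bp, chr1:161517360-161517659: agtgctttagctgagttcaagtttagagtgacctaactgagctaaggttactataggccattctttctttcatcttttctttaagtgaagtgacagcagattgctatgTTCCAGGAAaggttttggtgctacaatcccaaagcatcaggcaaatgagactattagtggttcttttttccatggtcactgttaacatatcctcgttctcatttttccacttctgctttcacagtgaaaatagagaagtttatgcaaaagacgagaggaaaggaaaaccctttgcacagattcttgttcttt
Tnfsf4 at −66021 bp, chr1:161329306-161329605: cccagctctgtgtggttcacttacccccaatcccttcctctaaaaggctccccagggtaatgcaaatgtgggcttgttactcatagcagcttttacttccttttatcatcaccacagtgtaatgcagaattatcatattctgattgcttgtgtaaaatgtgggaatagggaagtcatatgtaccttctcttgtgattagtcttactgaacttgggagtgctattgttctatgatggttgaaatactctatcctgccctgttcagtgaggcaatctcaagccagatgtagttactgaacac
Tnfrsf11a at 86371 bp, chr1:105867044-105867162: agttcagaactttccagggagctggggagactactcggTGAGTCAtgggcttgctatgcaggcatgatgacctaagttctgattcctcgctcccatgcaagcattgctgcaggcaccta

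The last 3 regions were lower after IL-4 and hold AP-1 matches, 2 in the Tnfsf4 region, of which the central 300 bases are shown, and 1 in each of the others. None of the 3 holds a STAT6 match. The third largest negative change, at the Tnfrsf1b promoter, holds neither.
Tnfsf4 at 11116 bp, chr1:161406438-161406737: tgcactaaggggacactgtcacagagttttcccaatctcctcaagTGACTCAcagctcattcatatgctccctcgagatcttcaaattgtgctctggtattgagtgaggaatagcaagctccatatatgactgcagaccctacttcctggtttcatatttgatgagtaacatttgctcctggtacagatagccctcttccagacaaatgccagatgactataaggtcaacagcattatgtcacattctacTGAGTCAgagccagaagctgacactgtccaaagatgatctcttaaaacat
Tnfrsf11a at −38071 bp, chr1:105742561-105742828: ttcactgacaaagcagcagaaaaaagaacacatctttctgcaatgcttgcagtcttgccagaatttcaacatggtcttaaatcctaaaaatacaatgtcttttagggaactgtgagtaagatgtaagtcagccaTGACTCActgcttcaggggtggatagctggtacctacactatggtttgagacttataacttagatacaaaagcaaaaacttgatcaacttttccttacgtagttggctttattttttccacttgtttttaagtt
Tnfsf18 at 2831 bp, chr1:161497396-161497644: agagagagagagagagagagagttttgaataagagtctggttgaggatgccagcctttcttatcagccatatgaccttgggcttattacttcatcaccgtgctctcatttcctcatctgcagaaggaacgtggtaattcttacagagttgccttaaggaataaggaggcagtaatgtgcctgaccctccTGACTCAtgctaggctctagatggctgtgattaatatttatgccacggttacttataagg

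The STAT6 letters also occurred in 7 other regions of the family, which are shown as the match with 10 bases on each side. They serve for comparison, since the heights of these regions did not all differ in one direction.
Tnfrsf14 at −1539 bp, chr4:154929453-154929482: acacaccctgTTCCAATGAAccctgtgagc
Tnfrsf1b at −23475 bp, chr4:145270171-145270200: gaagcctagaTTCACCAGAAtaaccagctc
Tnfsf13b at −57 bp, chr8:10006413-10006442: ccctttccccTTCCTTAGAAgccatgtggc
Tnfsf11 at −45034 bp, chr14:78353018-78353047: ctcatattctTTCATAAGAAtccccaagtt
Tnfrsf13b at −36339 bp, chr11:61104436-61104465: tgcagacagcTTCCGTGGAActctcttcta
Tnfsf18 at 25753 bp, chr1:161520388-161520417: acttcctcttTTCACAGGAAatcagagcat
Tnfrsf26 at −1893 bp, chr7:143629685-143629714: aaggaaacggTTCATCAGAAgctcagtgaa

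The values are peak heights. The deposited peak score was read as −log10 of the MACS2 q-value, so it measures the evidence for a peak in its own library and is not a count of reads. The files hold no read counts, so sequencing depth is unknown. The 4 libraries held 39462 to 45250 peaks with median heights of 6.41 to 8.04, and both the number and the median were lowest in IL-4 replicate 2. Promoter peaks within 1 kb of the TSS were found in all 4 libraries at 5 of 8 macrophage genes, namely Cd68, Emr1, Itgam, Lyz2 and Cebpa. Mertk had one in 3 libraries, and Spi1 and Csf1r had none within 1 kb, although 10 regions further away were assigned to Csf1r. None of the promoters of 5 T cell, 4 B cell, 4 erythroid and 4 fibroblast genes had a peak in all 4 libraries, and of 4 neutrophil genes S100a8 had one.

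Of the 31 protein-coding genes of the family in the RefSeq annotation, 26 had a region and 23 of them had a region in all 4 libraries. The 5 genes without a region were Tnfrsf4 (OX40), Tnfrsf9 and Tnfrsf25 (DR3), which are costimulatory receptors of T cells, Tnfrsf13c (the BAFF receptor of B cells) and Tnfrsf10b (the TRAIL death receptor). No region lay in any of these 5 genes or within 5 kb of one. Tnfrsf13b (TACI), Tnfrsf17 (BCMA) and Tnfrsf18 (GITR) had regions, but none in all 4 libraries under their own name. Within 5 kb of Tnfrsf17, however, lay a region in all 4 libraries that the files assign to the Snx29 promoter, with 12.66 and 12.45 in control and 11.5 and 13.73 in IL-4. A gene without a peak is one without a peak at the unknown depth of these libraries.

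**Figure D1:**
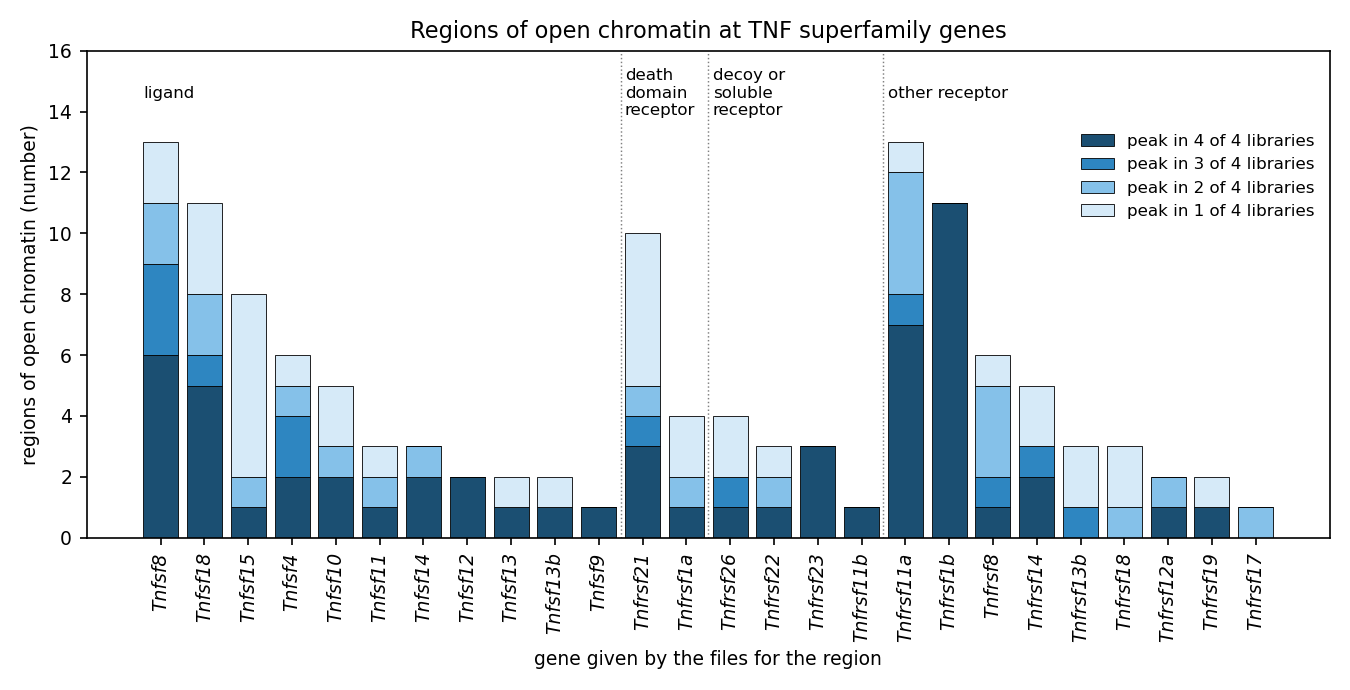
Number of regions (vertical axis) assigned to each of the 26 genes (horizontal axis), with ligands on the left and the receptor groups to their right. The shades give the number of libraries, of 4, in which a region had a peak. All 11 regions of Tnfrsf1b had a peak in all 4 libraries, whereas 6 of the 8 regions of Tnfsf15 had a peak in 1 library.

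Ligands were set beside their receptors by the gene name of the nearest TSS. Tnfsf8 and Tnfrsf8 (CD30 ligand and CD30), Tnfsf11 and Tnfrsf11a (RANK ligand and RANK), Tnfsf12 and Tnfrsf12a (TWEAK and Fn14) and Tnfsf14 and Tnfrsf14 (LIGHT and HVEM) had a region in all 4 libraries on both sides. For Tnfsf4, Tnfsf9, Tnfsf10, Tnfsf13, Tnfsf13b, Tnfsf15 and Tnfsf18 the ligand gene had such a region, whereas the receptors Tnfrsf4, Tnfrsf9, Tnfrsf10b, Tnfrsf13b, Tnfrsf13c, Tnfrsf17, Tnfrsf25 and Tnfrsf18 had none under their own name. Some of these names rest on distance, since the regions in all 4 libraries of Tnfsf11 and Tnfsf15 lay at −45034 and −20089 bp, with 0 in or within 5 kb of either gene. The decoy receptors of TRAIL, Tnfrsf22 and Tnfrsf23, had 1 and 3 regions in all 4 libraries. Tnfrsf22, Tnfrsf23 and Tnfrsf26 are neighbouring and similar genes on chromosome 7, and how reads that fit more than 1 of them were placed was not checked.

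Regions of the superfamily were spread much like the other regions over the libraries, and lay more often between genes. Of the 127 regions, 57 (44.9%) had a peak in all 4 libraries, against 41.9% of all 60710 regions. Another 12 had a peak in 3 libraries, 22 in 2 and 36 in 1 library. In the annotation of the files, 57 regions were intergenic (44.9%, against 35.8% of all regions), 44 lay in an intron (34.6%, against 40.2%) and 19 at a promoter (15.0%, against 18.8%). Among the ligands 36 of 56 regions were intergenic, whereas 11 of the 14 regions of the death domain receptors were intronic. Introns need not belong to the named gene, and the Tnfrsf11a regions at −38071, −33965, −33377 and −28328 bp lay in introns of its neighbour Relch. Median region length was 209 bp for the superfamily and for all regions.

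The number of open regions of the family differed between the groups by less than the replicate spread. The control libraries had a peak in 92 and 81 of the 127 regions and the IL-4 libraries in 91 and 80, which gives 86.5 ± 7.78 and 85.5 ± 7.78 (SD, n = 2 each). The difference was −1 region (two-sided exact permutation p = 0.67, where 2 against 2 libraries can give no p under 0.33). In both groups replicate 1 had the larger number, and the labels do not say whether the replicate numbers mark pairs. Among peaks above the median height of all libraries, 7.37, the difference was −12.5 regions (exact permutation p = 0.33, the smallest possible). This cut was made on deposited heights, before normalisation. Their medians over all peaks were 8.04 and 7.46 in control and 7.69 and 6.41 in IL-4. The matching difference over all regions was not counted, so the value is not a result about the family.

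A peak in both IL-4 libraries and in neither control library was found in 2 regions of the family, and the opposite in 3. That is 1.57% of the 127 regions, against 2.53% of all regions, for IL-4 alone and 2.36%, against 4.33%, for control alone, so neither share lies above the background. These counts rest on single libraries, since with 1 library left out the other of its group sets the rule alone. When IL-4 replicate 2 was left out, 14 regions were found with IL-4 alone and 5 with control alone, and without control replicate 1 the numbers were 7 and 13. Without control replicate 2 they were 4 and 12, and without IL-4 replicate 1 they were 7 and 6. The shares over all regions with 1 library left out were not counted, so these numbers show the dependence on single libraries only.

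The region found in the IL-4 libraries alone at Tnfrsf8, which encodes CD30, lay between genes at −8358 bp, with heights of 8.63 and 6.27. It is the second sequence shown and holds a STAT6, another STAT and an AP-1 match. A neighbouring region, at −7169 bp, had a peak in all 4 libraries, with heights of 10.65 and 5.99 in control and 4.14 and 4.83 in IL-4. The other region with IL-4 alone, at 86371 bp of Tnfrsf11a, was weak, with heights of 3.73 and 2.49.

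Peaks in the control libraries alone were found at the promoters of 2 receptors and upstream of a ligand. At the Tnfrsf11a promoter, −92 bp from the TSS, the heights were 4.92 and 4.84. At the promoter of Tnfrsf1a, the death domain receptor of TNF, the heights were 2.94 and 4.64, at −17 bp. The region at −33572 bp of Tnfsf4, the OX40 ligand, had heights of 5.65 and 2.66. All 3 regions were low beside the median height of 8.14 and 8.36 of the superfamily's peaks in the 2 control libraries.

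Next, heights were compared at the 57 regions that all 4 libraries shared. No region of the superfamily passed the test in either direction. The heights, on a log2 scale and quantile-normalised, were tested with limma over all 25442 regions present in all 4 libraries, of which 4 (0.0157%) were higher and 2 (0.00786%) lower after IL-4 at an adjusted p under 0.05. At an unadjusted p under 0.05, 4 of the 57 regions were higher (7.02%, against 4.12% of all regions) and 8 lower (14%, against 4.15%). The log2 change was negative at 38 of the 57 regions (66.7%, against 50.1%), with a median of −0.22 against −0.0006 over all regions. The normalised heights of both IL-4 libraries lay below those of both control libraries at 20 of the 57 regions (35.1%, against 18.6%) and above them at 6 (10.5%, against 19.2%).

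The sign of this median changed with the height of the peaks kept. Of peaks above the median height, 19 regions of the superfamily were left in all 4 libraries and their median log2 change was 0.045. Without control replicate 2 the median over 62 regions was −0.14. Before normalisation the median heights of the 57 regions were 11.84 and 10.37 in control and 9.4 and 7.12 in IL-4, and those of all 25442 regions were 12.52 and 11.01 in control and 11.14 and 8.86 in IL-4. The part that the lower heights of the IL-4 libraries have in these values was not tested.

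**Figure D2:**
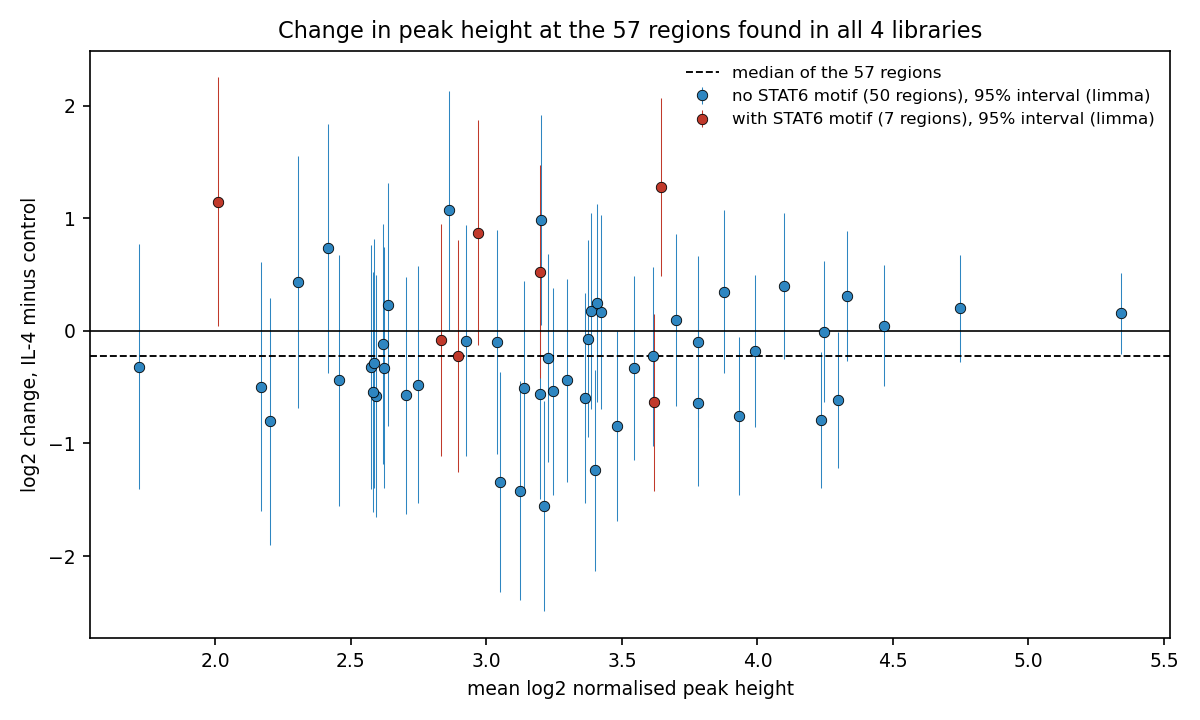
Log2 change of normalised peak height, IL-4 minus control (vertical axis), against mean log2 normalised height (horizontal axis) for the 57 regions shared by all 4 libraries, with 95% intervals from limma. Red points mark the 7 regions with a STAT6 match, blue points the 50 others and the dashed line the median of −0.22. Most intervals include 0. The regions with the greatest mean height, Tnfsf18 −12239 bp, Tnfrsf1b 24672 bp and Tnfrsf1b −11379 bp, had changes of 0.16, 0.20 and 0.05. Among the next highest, Tnfrsf11a 9681 bp and Tnfrsf23 16 bp had −0.62 and −0.79. Tnfrsf21 20 bp and Tnfrsf1b 5719 bp, of similar height, had 0.31 and −0.006.

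By group of genes, the log2 change had a median of −0.14 over the 24 regions of the ligands, 0.04 over the 4 regions of the death domain receptors, −0.41 over the 6 regions of the decoy or soluble receptors and −0.29 over the 23 regions of the other receptors. Within the ligands the values ran from −1.56 to 1.15, and within the other receptors from −1.42 to 1.28. Of the 6 largest positive and the 6 largest negative changes, 9 lay at Tnfrsf1b, Tnfrsf11a, Tnfsf4 and Tnfsf18, and each of these 4 genes had regions on both sides. The 12 regions were chosen for their size of change, and none passed the test. Leaving out 1 library moved 6 of the 12 changes by over 1.5 times. Without control replicate 1, Tnfsf13 −260 bp went from 1.15 to 0.74, Tnfsf18 22858 bp from 1.07 to 0.30 and Tnfrsf23 −418 bp from 0.73 to 1.21. Without control replicate 2 the latter pair were 1.82 and 0.22, and Tnfrsf1b 12909 bp went from −0.85 to −0.56. Without IL-4 replicate 2, Tnfrsf11a −38071 bp went from −1.42 to −0.91, Tnfsf18 2831 bp from −1.24 to −0.78 and Tnfrsf23 −418 bp to 1.13. Without IL-4 replicate 1 the Tnfrsf23 value was 0.36.

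**Figure D3:**
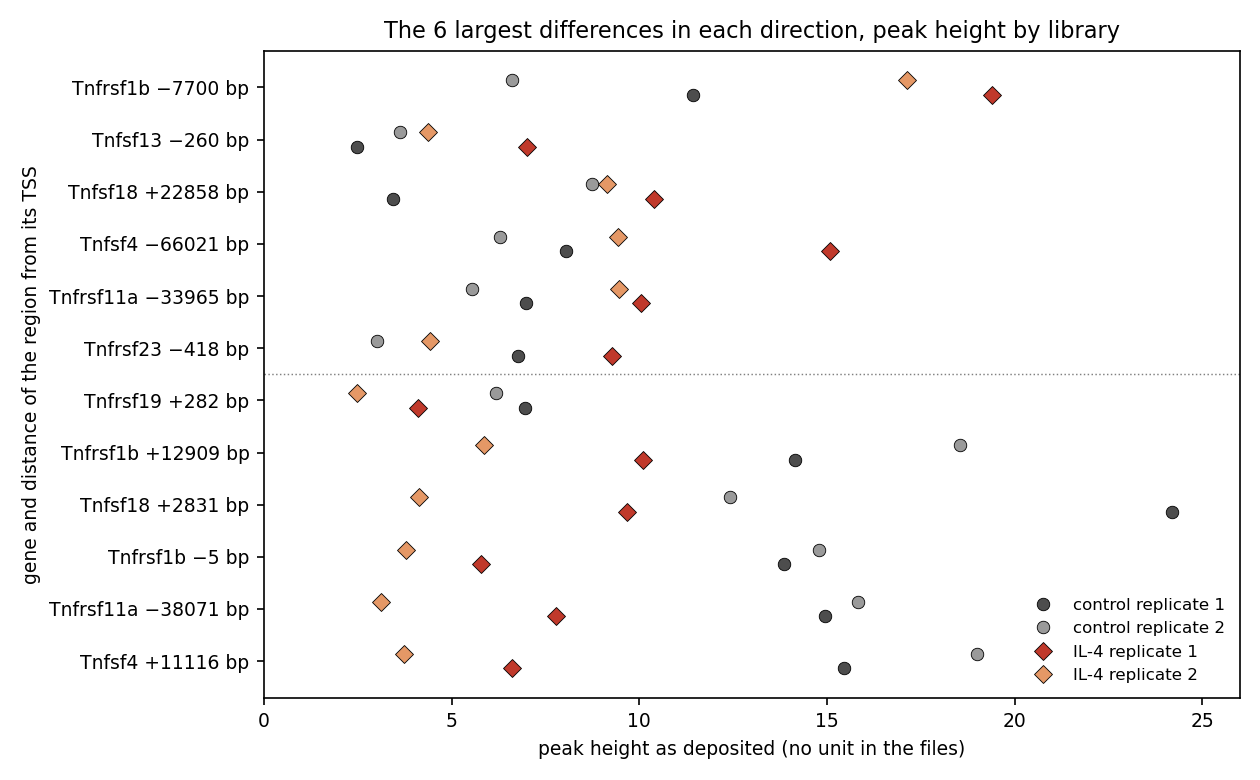
Deposited peak height (horizontal axis) in each library at the 6 regions with the largest positive (upper) and the 6 with the largest negative (lower) log2 change, named by gene and distance from the TSS. Circles are control and diamonds IL-4 libraries. At Tnfrsf1b −7700 bp both diamonds lie at 17.13 and 19.39, above both circles, and at Tnfrsf1b −5 bp both lie at 3.79 and 5.79, below both circles.

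Tnfrsf1b, the receptor of TNF that lacks a death domain, had 11 regions and each of them had a peak in all 4 libraries. The region at −7700 bp, between Tnfrsf1b and Tnfrsf8, had heights of 11.42 and 6.61 in control and 19.39 and 17.13 in IL-4. Both IL-4 libraries were higher than both control libraries, and the log2 change of 1.28 was the largest positive one of the superfamily (SE 0.39, limma adjusted p = 0.281). The promoter, at −5 bp, went the other way. It had heights of 13.85 and 14.79 in control and 5.79 and 3.79 in IL-4, with a log2 change of −1.34 (SE 0.49, limma adjusted p = 0.404). In the first intron, at 12909 bp, the heights were 14.16 and 18.54 in control and 10.09 and 5.85 in IL-4, again without overlap, and the log2 change was −0.85 (SE 0.42, limma adjusted p = 0.603).

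The other regions of Tnfrsf1b lay between these extremes. At −21021 bp the heights were 22.64 and 19.83 in control and 9.4 and 12.57 in IL-4, with a log2 change of −0.76. The highest region, in intron 8 at 24672 bp, had 25.65 and 27.37 in control and 31.02 and 24.35 in IL-4, so the deposited heights of the groups overlapped. After normalisation both IL-4 libraries lay above both control libraries. The log2 change was 0.20, with a 95% interval of −0.27 to 0.68. At −11379 bp the heights were 26.24 and 20.22 in control and 24.0 and 18.67 in IL-4, and the log2 change of 0.05 had a 95% interval of −0.49 to 0.59. The regions at −23475 and −29867 bp lay in introns 12 and 11 of Tnfrsf8. The first of them holds a STAT6 match, and its heights were 8.36 and 9.12 in control and 5.1 and 7.96 in IL-4. These overlapped after normalisation. At 611 bp, in intron 1, the heights were 6.95 and 6.97 in control and 6.62 and 4.53 in IL-4. Over all 11 regions of the gene the median log2 change was −0.22, with 3 values above and 8 below 0.

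**Figure D4:**
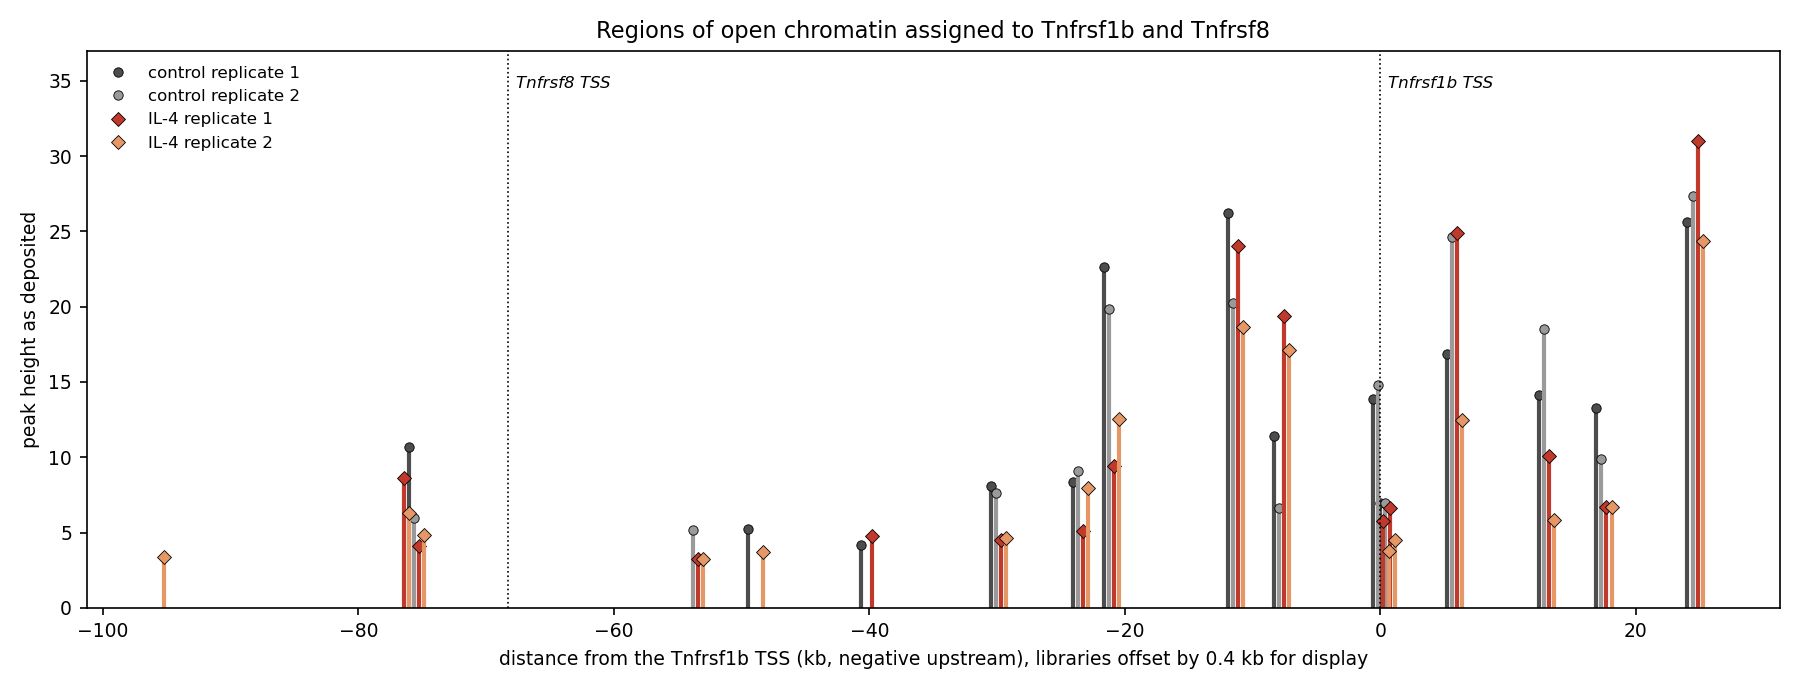
Deposited peak height (vertical axis) of the regions assigned to Tnfrsf1b and Tnfrsf8, by distance from the Tnfrsf1b TSS in kb (horizontal axis, negative upstream). Dotted lines mark the TSS of Tnfrsf1b and that of Tnfrsf8, 68.28 kb upstream. Each line with a symbol is a peak in 1 library, and the IL-4 diamonds stand above the control circles at −7700 bp and below them at the TSS.

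RANK (Tnfrsf11a) had 13 regions, 7 of them in all 4 libraries. Neighbouring regions in introns of Relch differed in direction. At −38071 bp, in intron 23, the heights were 14.96 and 15.84 in control and 7.78 and 3.12 in IL-4, with a log2 change of −1.42 (SE 0.48, limma adjusted p = 0.367). At −33965 bp, in intron 25, the control heights were 6.98 and 5.53 and the IL-4 heights 10.05 and 9.45, with a log2 change of 0.87 (SE 0.50, limma adjusted p = 0.665). The 95% intervals of the changes, −2.39 to −0.45 and −0.12 to 1.87, did not overlap, but both regions were chosen as extremes. In the first intron of Tnfrsf11a itself, at 9681 bp, the heights were 27.24 and 24.27 in control and 12.18 and 18.23 in IL-4, with a log2 change of −0.62. The regions in the same intron at 6453 and 20720 bp had changes of 0.35 and 0.10, so the gene had no common direction.

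Tnfsf4, the OX40 ligand, and Tnfsf18, the GITR ligand, are neighbours on chromosome 1 that costimulate T cells. The only intronic region of Tnfsf4, in intron 1 at 11116 bp, had heights of 15.45 and 19.01 in control and 6.62 and 3.73 in IL-4. This was the largest negative change of the superfamily, −1.56 on the log2 scale (SE 0.47, limma adjusted p = 0.268), and both IL-4 libraries were lower than both control libraries. At −66021 bp of Tnfsf4 the heights were 8.04 and 6.29 in control and 15.08 and 9.42 in IL-4, with a log2 change of 0.99 (SE 0.46, limma adjusted p = 0.574).

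At Tnfsf18 the first intron, at 2831 bp, had heights of 24.19 and 12.41 in control and 9.66 and 4.13 in IL-4. The log2 change was −1.24 (SE 0.45, limma adjusted p = 0.397). Downstream of the gene, at 22858 bp, the heights were 3.44 and 8.73 in control and 10.38 and 9.14 in IL-4, with a change of 1.07 (SE 0.53, limma adjusted p = 0.597). The highest region of the superfamily was also at Tnfsf18, at −12239 bp, with 44.67 and 34.05 in control and 47.86 and 37.28 in IL-4, and its log2 change of 0.16 had a 95% interval of −0.20 to 0.52.

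Promoters were examined next, since they mark the TSS itself. Within 1 kb of a TSS, 24 regions at 19 genes were found, and 16 of them, at 14 genes, had a peak in all 4 libraries. The log2 change was below 0 at 12 of these 16, with a median of −0.36, whereas over the 9118 such regions of all genes it was below 0 at 4153, with a median of 0.04. Beyond 1 kb, 26 of 41 regions of the superfamily were below 0, with a median of −0.18. No promoter region passed the test.

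**Figure D5:**
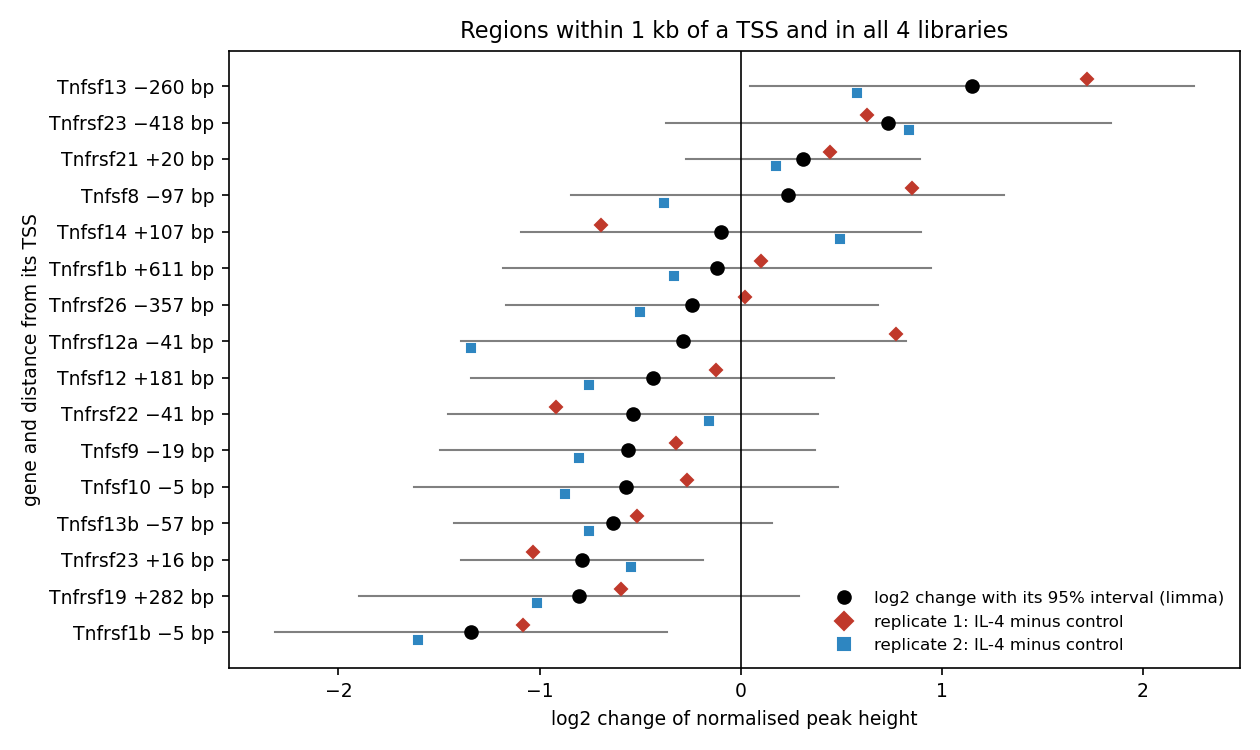
Log2 change of normalised peak height (horizontal axis) at the 16 regions within 1 kb of a TSS and in all 4 libraries (vertical axis, gene and distance from its TSS). Black points are the change with its 95% limma interval, red diamonds IL-4 minus control for the libraries numbered 1 and blue squares for those numbered 2. The intervals of Tnfrsf1b −5 bp and Tnfrsf23 16 bp lie wholly below 0 and that of Tnfsf13 −260 bp wholly above 0, before adjustment for the number of regions tested.

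Among the ligands, both B cell survival factors had a promoter region with a peak in all 4 libraries. At Tnfsf13, which encodes APRIL, the region at −260 bp had heights of 2.49 and 3.62 in control and 7.02 and 4.37 in IL-4, and the log2 change was 1.15 (SE 0.55, limma adjusted p = 0.584). These heights are low. Each lies below the median of its library over the 57 shared regions, 11.84 and 10.37 in control and 9.4 and 7.12 in IL-4. A second Tnfsf13 region, at 93 bp, had 1 peak, with a height of 2.54 in control replicate 1. At the promoter of Tnfsf13b, which encodes BAFF, the heights were 17.76 and 15.34 in control and 11.19 and 7.3 in IL-4, with a change of −0.64 (SE 0.39, limma adjusted p = 0.702). Both promoters hold a STAT6 match, and their changes had opposite signs.

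The promoter of Tnfsf9, a costimulatory ligand of T cells, had heights of 10.99 and 13.37 in control and 7.85 and 6.18 in IL-4. At the promoter of Tnfsf10, which encodes TRAIL, the heights at −5 bp were 8.79 and 8.63 in control and 6.56 and 3.73 in IL-4. Both promoters were lower in both IL-4 libraries, with log2 changes of −0.56 and −0.57 whose 95% intervals include 0. At the Tnfsf8 promoter, −97 bp, the heights of 6.11 and 6.41 in control and 9.6 and 3.91 in IL-4 overlapped. The first exons of Tnfsf12 (TWEAK, 181 bp) and Tnfsf14 (LIGHT, 107 bp) also held a region in all 4 libraries. For Tnfsf12 the heights were 11.84 and 13.04 in control and 9.66 and 6.23 in IL-4. For Tnfsf14 they were 13.59 and 6.18 in control and 7.5 and 7.07 in IL-4. The promoters of Tnfsf15 (−166 bp, 3.78 in control replicate 2), Tnfsf18 (−129 bp, 4.46 in IL-4 replicate 1) and the −259 bp region of Tnfsf10 (3.64 in control replicate 2) had a peak in 1 library each.

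Of the receptors, the promoter of Tnfrsf21, the death domain receptor DR6, stood among the highest, with 22.04 and 16.97 in control and 27.64 and 16 in IL-4. Its log2 change of 0.31 had a 95% interval of −0.27 to 0.89. Unlike it, the Tnfrsf1a promoter had the low peaks in the control libraries described above, and the only Tnfrsf1a region in all 4 libraries was intronic, at 5119 bp, with 13.98 and 8.67 in control and 13.01 and 8.34 in IL-4. At Tnfrsf12a (Fn14) the promoter heights of 4.86 and 10.81 in control and 7.3 and 3.61 in IL-4 overlapped. The Tnfrsf14 (HVEM) promoter had a peak in IL-4 replicate 1 alone, with a height of 5.4. In the first exon of Tnfrsf19 (TROY), at 282 bp, the heights were 6.96 and 6.18 in control and 4.11 and 2.49 in IL-4, with a log2 change of −0.80 (SE 0.55, limma adjusted p = 0.742).

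No promoter of the genes grouped here as decoy or soluble receptors passed the test. Tnfrsf23 had 30.08 and 22.42 in control and 13.82 and 12.71 in IL-4 at 16 bp, a log2 change of −0.79 (SE 0.30, limma adjusted p = 0.428). A second Tnfrsf23 region, at −418 bp, had 6.76 and 3.02 in control and 9.27 and 4.41 in IL-4, a change of 0.73 (SE 0.55, limma adjusted p = 0.780). The groups overlapped at this second region, and when regions within 500 bp were merged it joined the first and the change was −0.79. Tnfrsf22 had promoter heights of 14.78 and 10.37 in control and 6.97 and 7.46 in IL-4, and a second region, at 390 bp, with 2.26 in control replicate 1 and 3.5 in IL-4 replicate 1. The Tnfrsf26 promoter had 9.99 and 12.35 in control and 9.06 and 6.89 in IL-4. The log2 changes of both promoters, −0.54 and −0.24, had 95% intervals that include 0. Osteoprotegerin (Tnfrsf11b), the soluble decoy of RANK ligand, had a single region, 157762 bp from its TSS, with 9.22 and 6.15 in control and 6.73 and 3.73 in IL-4.

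Motifs were compared next, as a property that the choice of regions did not use. The STAT6 letters were found in 11 of the 127 regions (8.66%, against 7.22% of all regions) and the other STAT letters in 9 (7.09%, against 6.90%). The AP-1 letters were found in 34 (26.8%, against 18.1%), the PU.1 letters in 15 (11.8%, against 9.87%), the C/EBP letters TTNNGCAA in 17 (13.4%, against 12.1%) and the NF-kB motif in 5 (3.94%, against 6.67%). In windows of 200 bp around the centre of each region the shares were 7.87% against 6.35% for STAT6 and 23.6% against 16.9% for AP-1. A match describes the letters of a region and not binding by the factor.

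Among the 57 regions in all 4 libraries, 7 held a STAT6 match and their median log2 change was 0.53, with 4 above and 3 below 0. The 50 without a match had a median of −0.30. Over all 25442 regions the medians were 0.18 for the 2269 with a match and −0.02 for the 23173 without, so the order was the same. The 4 above 0 were Tnfrsf1b −7700 bp, Tnfsf13 −260 bp, Tnfrsf11a −33965 bp and Tnfrsf14 −1539 bp. The Tnfrsf14 region had heights of 6.88 and 10.14 in control and 9.31 and 11.19 in IL-4, which overlapped. Those below 0 were the Tnfsf13b promoter, Tnfrsf1b −23475 bp and Tnfsf11 −45034 bp, the latter with 10.14 and 6.18 in control and 6.88 and 5.85 in IL-4.

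The remaining STAT6 matches lay in regions that were not found in every library. At Tnfrsf13b (TACI), −36339 bp, the heights were 3.78 in control replicate 2 and 7.96 and 3.73 in IL-4. The Tnfsf18 region at 25753 bp had a height of 3.5 in control replicate 1 and 5.53 in IL-4 replicate 1. The Tnfrsf26 region at −1893 bp had 6.22 in IL-4 replicate 1 alone. In IL-4 replicate 2 the latter pair had no peak and the Tnfrsf13b height was close to that of control replicate 2, so the 2 IL-4 libraries differed. These are deposited heights, whose median was lowest in IL-4 replicate 2.

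The AP-1 letters were found in 20 of the 57 regions, with a median log2 change of −0.32 and 14 values below 0, against a median of −0.22 over the 37 without. Over all regions in all 4 libraries the medians were −0.08 with and 0.02 without an AP-1 match. Of the 6 largest negative changes, Tnfsf4 11116 bp, Tnfrsf11a −38071 bp, Tnfsf18 2831 bp and Tnfrsf1b 12909 bp held an AP-1 match, whereas the Tnfrsf1b promoter and Tnfrsf19 282 bp did not. Of the 6 largest positive changes, Tnfrsf1b −7700 bp held one beside its STAT6 match. The 8 regions with a PU.1 match had a median of −0.57, with 7 values below 0, against −0.22 and 31 of 49 for those without. Those at −29867, −21021, 5719 and 12909 bp were all assigned to Tnfrsf1b, so they are not separate loci. Over all regions in all 4 libraries the median with a PU.1 match was −0.02, with 1581 of 3096 below 0.

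Members of the family that carry other names, and the proteins that relay the signal, were counted from lists. Of 15 genes such as Tnf, Fasl, Cd40 and Fas, 13 had 36 regions, 11 of them in all 4 libraries, and 0 were called higher or lower with limma, with 0 higher and 1 lower (9.09%, against 4.15% of all regions) at an unadjusted p under 0.05. The lower one lay at 59763 bp of Fasl, which encodes the ligand of the death receptor Fas, on chromosome 1, with 11.18 and 11.48 in control and 4.0 and 4.21 in IL-4. It had a log2 change of −1.24 (SE 0.52, limma adjusted p = 0.519). At the Fas promoter the heights were 12.11 and 13.1 in control and 17.23 and 13.89 in IL-4, a change of 0.52 (SE 0.36, limma adjusted p = 0.760). Of this list 1 region, at the Eda promoter, was found with IL-4 alone (2.95 and 1.35) and 1, at −14407 bp of Lta, with control alone (5.5 and 4.33).

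Of 20 genes of signalling proteins, 19 had 122 regions, 56 of them in all 4 libraries, with a median log2 change of 0.06. With limma 0 were called in either direction, and 1 was higher (1.79%, against 4.12% of all regions) and 3 lower (5.36%, against 4.15%) at an unadjusted p under 0.05. The lowest p was that of a region in an intron of Traf3, an adaptor that holds NF-kB signalling in check, at 20689 bp, with 18.09 and 22.25 in control and 3.8 and 7.78 in IL-4. Its log2 change was −1.67 (SE 0.45, limma adjusted p = 0.218).

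Regions with a peak in the IL-4 libraries alone numbered 5 of the 122 at signalling genes (4.1%, against 2.53% of all regions), and those with control alone 1 (0.82%, against 4.33%). They lay at 3278 bp of Tnfaip3, an inhibitor of NF-kB (6.3 and 6.51), at 15759 bp of Tank (7.68 and 3.64), at −272047 bp of Tank (1.68 and 3.03), at 2156 bp of Casp8 (4.25 and 5.26) and at 12733 bp of Cflar (3.33 and 3.87). The first 2 hold a STAT6 match. The region with control alone was at −102259 bp of Tank, with 3.17 and 4.95. The lists were chosen with results of these data known, so the counts are a description.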

How the data were processed

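ATAC-seq was performed on nuclei of BMDMs, 2 control and 2 IL-4 libraries. The authors aligned reads to mm10 with BWA, called peaks with MACS2 in each library separately, removed blacklisted regions and annotated peaks with HOMER (BWA 0.7.10, SAMtools 0.1.19, HOMER 4.2 and MACS2 2.0.10 per the submitters' processing notes). Handling of the Tn5 offset, duplicates and multiply mapping reads is not given in the sources used here. Each deposited list holds a peak score whose unit is not stated. It was read as a −log10 q-value, because the lowest deposited score was 1.3, close to a q of 0.05. The methods name a q of 0.01, a score of 2, under which 133 to 603 peaks per library scored. The score rises with depth, and depth is unknown. The authors compared reads, which are not used here.

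Chromosomes 1 to 19, X and Y were used. Peaks were merged at 1 bp overlap (Python 3.11.15, checked with bedtools 2.31.1), and 12 mitochondrial peaks were left out. A region took the highest score per library, called peak height, and the gene of its highest peak. Log2 heights of regions in all 4 libraries were quantile-normalised and tested with limma 3.58.1 (R 4.3.3, lmFit, eBayes with trend, Benjamini-Hochberg adjustment, threshold 0.05). The trend draws the variance of a region towards that of regions of similar height. Tnfsf9 −19 bp, with normalised log2 IL-4 heights of 2.92 and 2.92, had an SE of 0.466. Tnfsf8 13868 bp, with 2.22 and 3.91, had an SE of 0.467. Before this, the fit was run on simulated data whose changes were larger than any found here. That run does not show whether changes of the sizes seen here would be called. Peak numbers were compared by exact permutation (scipy 1.17.1). Motifs were read from GRCm38. The members, gene groups, motifs and lists were chosen with earlier results of these data known. Values were given in full for regions found in one group alone, regions the files annotate as promoter, regions with a STAT6 match and the 6 largest changes in each direction. Alternatives changed the normalisation, the variance trend, the merging, the height and distance limits, the replicate block and the libraries.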

Additional observations from a re-analysis of the deposited data

How the results depend on the processing

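Under every alternative tried for the limma comparison, 0 regions of the superfamily were called in either direction. Over all regions, against 4 higher and 2 lower, the calls were 0 and 0 without a variance trend, 28 and 8 with a peak in at least 3 libraries, and 2 and 1 for peaks above the median height. Leaving out 1 library gave 0 to 14 higher and 0 lower. With the replicate number as a replicate block there were 11 higher and 3 lower. The labels do not say that a number marks a shared animal or day, so the libraries were not treated as paired. After normalisation the deviations of same-numbered libraries correlated with r = 0.0068 across regions. Normalisation removes differences between whole libraries, so this r says nothing about the peak numbers. Those were higher in replicate 1 (92 in control, 91 in IL-4) than in replicate 2 (81 and 80). For the difference in peak number, pairing by replicate number gives the same −1 region by arithmetic, so it is not a separate check.

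The median log2 change of the superfamily, −0.22, was −0.17 with a peak in at least 3 libraries and 0.045 for peaks above the median height, and ran from −0.24 to −0.14 when 1 library was left out. For peaks above the median height, 1 region was found with IL-4 alone and 7 with control alone, and the difference in peak number was −12.5. This limit acts on the compared heights themselves. A region low in 1 group could drop out of the shared regions or count as found in the other group alone. With 1 library of the other group tolerated, 9 and 8 regions were found, and with regions within 50 kb of a TSS 1 with IL-4 alone. Leaving out 1 library gave 4 to 14 with IL-4 alone and 5 to 13 with control alone. Under these settings the shares over all regions were not counted, so the counts are not a result about the family. This includes the limit at the median height, which was set on deposited heights before normalisation. The Tnfrsf23 change at −418 bp became −0.79 when regions within 500 bp were merged, because it then joined the promoter region. The other 11 named changes kept their sign under all 11 alternatives run for each, and none was called in those with 2 libraries a group. The replicate block and the fit without a variance trend cannot move a log2 change, so neither could alter a sign. For peaks above the median height, no named region was left in all 4 libraries. Heights are evidence for a peak and not reads, depth is unknown, and with 2 libraries a group an absent peak may be a missed one.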
